A study of Mus musculus with 18 samples.

Results

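Immunoglobulin heavy and light chain genes encode the chains of antibodies. They were chosen by symbol (variable, diversity, joining and constant genes of the heavy chain, Igh, and of the light chains kappa, Igk, and lambda, Igl), and by a sum of at least 50 counts over 12 colon tissue libraries. This rule kept 199 of 287 immunoglobulin genes in a table of 36757 genes. The rule used the level of a gene summed over the tissue libraries, so levels are given as a description, and a gene abundant in a single library could pass. Just inside the threshold were Igkv3-3 and Igkv4-92, with 55 counts each, and just outside it were Ighj1 and Igkv1-35, with 47 counts each.

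RNA from colorectal tissue of C57BL/6 mice, aged 6 to 8 weeks when the models were begun, was sequenced in 4 groups of 3 libraries, WT (RNF138fl/fl in the study's methods) and RNF138-/- mice in each of a colitis and a tumor model. In the colitis model (DSS), mice drank 2% dextran sulfate sodium for 7 days and then water for 14 days, the cycle was repeated 2 times, and tissue was taken 4 weeks after the last cycle. In the colitis-associated cancer model (AOM/DSS), the same cycles began 4 days after a single dose of the carcinogen azoxymethane at 10 mg/kg. A further 6 libraries came from organoids, epithelial cultures grown from AOM/DSS tumors of both genotypes. How the RNF138-/- mice were made, and whether replicates are separate animals, is not given in the sources used here, so p-values measure the spread between these libraries. Total counts were between 11514716 and 24390082 per library.

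An antibody heavy chain gene is assembled in each B cell by joining a variable (V), a diversity (D) and a joining (J) segment, and a light chain gene by joining a V and a J segment. Descendants of a B cell largely keep its joined segments. Class switching then replaces the first constant region, IgM, by IgG, IgE or IgA without changing the V segment. The gut wall is rich in plasma cells that secrete IgA, which the J chain (Jchain) links into dimers and the receptor Pigr carries through the epithelium into the lumen.

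The members were 86 of 129 Ighv genes, 90 of 122 Igkv genes and 3 of 3 Iglv genes, which are variable genes. They also held 8 of 8 heavy chain constant genes, Igkc, 3 of 4 Iglc genes, 3 of 4 Ighj genes and 5 of 5 Igkj genes. None of the 8 Ighd segments and none of the 3 Iglj genes reached the threshold. In the 12 tissue libraries the members had 2365604 counts, of which the heavy chain constant genes held 47.5%, Igkc 28.4%, the Igkv genes 12.2%, the Ighv genes 7.87%, the Iglv genes 2.08% and the Iglc genes 1.81%. Counts were present in every tissue library for 134 members, while 36 had more than 50% of their counts in a single library.

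Many variable genes are near copies of each other, and a read common to 2 genes may be split, lost or assigned to either by counting. For 24 members, at least 50% of the 50-base windows of their transcripts also occurred in another gene, and for 38 members none did. The variable exons of a kappa and a lambda pair are shown because these 4 genes were among the most abundant of their class and the light chain and V gene results turn on them. All are coding sequence of the variable exon, read 5′ to 3′ on the gene's strand from the GENCODE M21 transcripts of mm10, and capitals mark the bases at which the members of a pair differ. The first 300 bases of each exon are printed and hold all the differences. The stretch of Igkv1-117 lies on the plus strand at chr6:68121515-68121814 and that of Igkv1-110 on the plus strand at chr6:68270955-68271254. The 2 exons differed at 10 of 313 bases (96.8% identity).

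Igkv1-117: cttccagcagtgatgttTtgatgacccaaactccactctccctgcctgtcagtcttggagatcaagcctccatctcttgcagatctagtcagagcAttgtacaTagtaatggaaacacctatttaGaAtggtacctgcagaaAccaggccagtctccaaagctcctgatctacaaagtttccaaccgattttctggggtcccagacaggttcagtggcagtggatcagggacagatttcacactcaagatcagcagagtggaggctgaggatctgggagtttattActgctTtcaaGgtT
Igkv1-110: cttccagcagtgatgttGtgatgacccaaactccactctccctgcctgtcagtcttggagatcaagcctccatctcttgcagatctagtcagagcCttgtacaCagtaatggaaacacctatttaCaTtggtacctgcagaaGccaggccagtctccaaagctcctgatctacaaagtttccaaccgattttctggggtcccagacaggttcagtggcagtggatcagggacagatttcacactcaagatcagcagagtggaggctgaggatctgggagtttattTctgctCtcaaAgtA

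For the lambda pair, the stretch of Iglv1 lies on the minus strand at chr16:19085022-19085321 and that of Iglv2 on the minus strand at chr16:19260406-19260705. Their exons differed at 9 of 305 bases (97.0% identity).

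Iglv1: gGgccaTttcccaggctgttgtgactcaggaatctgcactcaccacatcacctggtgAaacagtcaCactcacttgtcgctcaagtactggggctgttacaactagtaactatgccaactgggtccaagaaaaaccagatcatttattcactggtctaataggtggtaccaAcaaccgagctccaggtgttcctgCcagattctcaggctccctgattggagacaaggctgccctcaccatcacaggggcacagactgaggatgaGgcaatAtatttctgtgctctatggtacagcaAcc
Iglv2: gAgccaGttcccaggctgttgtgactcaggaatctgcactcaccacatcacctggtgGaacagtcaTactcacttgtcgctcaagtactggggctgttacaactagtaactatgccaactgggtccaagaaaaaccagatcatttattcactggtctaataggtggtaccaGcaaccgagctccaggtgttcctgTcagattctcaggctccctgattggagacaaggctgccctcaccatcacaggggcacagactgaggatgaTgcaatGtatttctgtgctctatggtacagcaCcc

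Over the whole transcript, 49.9% of the windows of Igkv1-117 and 50.9% of those of Igkv1-110 occurred in another gene. The shares were 22.2% for Iglv1 and 21.1% for Iglv2. The values of these pairs are therefore uncertain where reads could be assigned to either gene.

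A check of the labels and libraries preceded the comparisons. Rnf138 mRNA, the targeted gene, was not lower in the libraries labelled RNF138-/-. In DSS it had 16.7, 19.2 and 26.9 CPM (counts scaled to a common library size of 1e6) in the WT libraries and 20.8, 19.2 and 20.4 CPM in the libraries labelled RNF138-/-. In AOM/DSS it had 29.5, 29.2 and 23.0 CPM in WT and 42.4, 48.7 and 48.9 CPM in the libraries labelled RNF138-/-. Which part of the gene was removed is not given in the sources used here, so the mRNA level does not settle the label, and every genotype below is the label's. DSS WT libraries 1 and 3 stood apart in another way. Their V gene use overlapped by 89.4% for Ighv and 86.0% for Igkv (the sum over genes of the smaller of the 2 shares), while the highest overlap among the other 65 pairs of tissue libraries was 67.0% and 64.1%. For genes other than immunoglobulin the chi-square per degree of freedom was 34.3 between them, against 11.04 between WT libraries 1 and 2 and 43.8 between 2 and 3, and for the immunoglobulin members it was 46.4 against 145 and 187. All pairs thus differed beyond sampling noise, which does not show that they are separate animals. The labels do not say whether libraries 1 and 3 share an animal or an RNA sample, so n = 3 and the narrow ranges of DSS WT may rest on fewer independent samples. They were kept as 2 libraries, as labelled, and results that change when they are summed as 1 library are given both ways.

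In the AOM/DSS model, immunoglobulin genes held less of the RNA in the libraries labelled RNF138-/- than in WT. The members took 1.54%, 2.27% and 1.06% of all counts in the WT libraries and 0.281%, 0.199% and 0.101% in the RNF138-/- libraries, so the groups did not overlap. In the DSS model they took 1.52%, 1.54% and 1.47% in WT and 1.51%, 1.30% and 1.28% in RNF138-/-, which overlapped. The means were 1.51% ± 0.0368 (SD, n = 3) and 1.36% ± 0.125 in DSS, and 1.63% ± 0.61 and 0.194% ± 0.0901 in AOM/DSS. With genotype labels exchanged within each model, the difference over both models was -0.792 percentage points (exact permutation test, two-sided, n = 6 against 6, p = 0.01, and 0.06 after Benjamini-Hochberg adjustment over 18 tests of library values). The smallest p this design allows is 0.005, and 0.1 within a model.

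Igha, the constant gene of IgA heavy chains, lies on the minus strand of chr12:113254830-113260236 and had the most counts of the heavy chain genes in all 12 tissue libraries. In AOM/DSS it had 6146, 7250 and 5256 CPM in WT and 573, 600.1 and 338 CPM in RNF138-/-, with no overlap. The edgeR quasi-likelihood test gave a log2 fold change of -3.68 (SE 0.33, adjusted p = 0.0168). In DSS Igha had 7671, 7548 and 6457 CPM in WT and 7769, 4666 and 5376 CPM in RNF138-/-. These groups overlapped, and the log2 fold change was -0.29 (SE 0.26, adjusted p = 0.773, edgeR). Igkc, the kappa constant gene on the plus strand of chr6:70726435-70726966, is the partner chain of most mouse antibodies. In AOM/DSS it had 3635, 5117 and 2649 CPM in WT and 565, 386 and 221 CPM in RNF138-/-, again with no overlap, at a log2 fold change of -3.33 (SE 0.45, adjusted p = 0.0253, edgeR). In DSS it had 4854, 5019 and 4117 CPM in WT and 6096, 5014 and 3564 CPM in RNF138-/-, at a log2 fold change of 0.06 (SE 0.26, adjusted p = 0.964, edgeR). In the plot of constant gene levels by library, the AOM/DSS RNF138-/- points of both genes lie below every other tissue library.

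**Figure D1:**
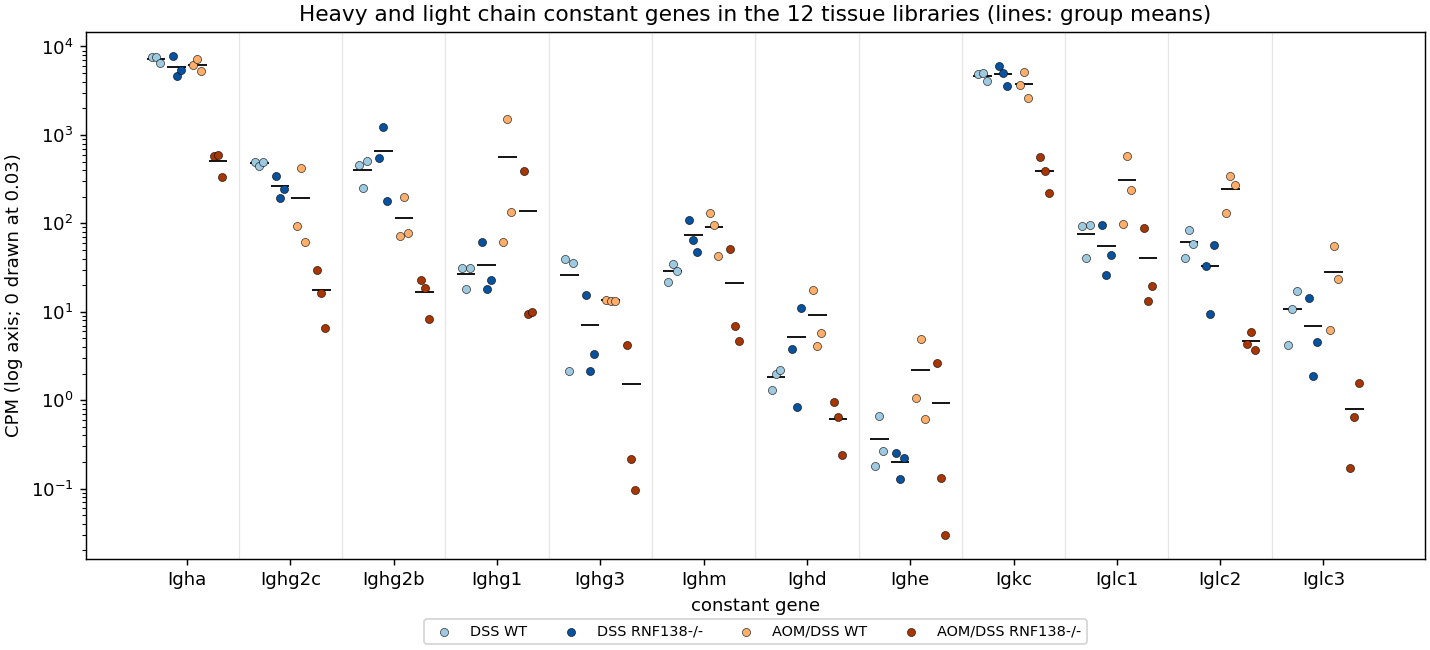
CPM (log scale) of the heavy and light chain constant genes in the 12 tissue libraries, one point a library, coloured by group, with lines at the group means. For Igha the 3 AOM/DSS RNF138-/- libraries sit between 338 and 600.1 CPM and the other 9 between 4666 and 7769 CPM.

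The fall in AOM/DSS ran across classes of immunoglobulin genes. Of 176 members tested, 61 were called lower (adjusted p under 0.05 and at least a 2-fold change) and none higher, against 4.83% of all genes called lower and 0.546% called higher. At an unadjusted p under 0.05 with a 2-fold change the counts were 133 lower and 0 higher, against 12.1% and 4.29% of all genes, and DESeq2 called 125 lower and 0 higher, against 10.8% and 3.15% of all genes. A gene that passes the filter on low counts through its higher group alone is set to differ. This held for 99 of the 176 members and 33 of the 61 calls, and of the other 77 members 28 were called lower. Among the 33 were Ighd, Iglc3 and all the Ighj and Igkj genes called, and those described below are given without a test. The median log2 fold change was -3.34 over the members and 0.01 over all 17752 genes tested, and 175 of 176 members had a negative value. Groups did not overlap for 112 members, all lower in RNF138-/-, against 20.7% of all genes. The unadjusted and DESeq2 counts, the median, the signs and the 112 include the 99 members set to differ. They are therefore a description. The members called lower were 3 of 8 heavy constant, 2 of 2 Ighj, 21 of 78 Ighv, 26 of 77 Igkv and 4 of 4 Igkj genes, with Igkc, 2 of 3 Iglc and 2 of 3 Iglv genes. These counts rest on few libraries. With AOM/DSS RNF138-/- library 1 or library 2 left out, 0 members and 0 of all genes were called lower, and 12 members (6.42%, against 0.572% of all genes) were called without RNF138-/- library 3. Without WT library 1, 2 or 3 the count was 24, 39 or 102, while the share of all genes called lower was 1.52%, 3.17% or 5.25%. In bulk tissue, fewer antibody-secreting cells and less immunoglobulin RNA per cell cannot be told apart.

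Markers of other cell types moved in the same comparison, and their part in the result was not tested. In AOM/DSS, 9 of 12 B cell markers were called lower, and their summed level ran from 68.7 to 161 CPM in WT and from 8.13 to 14.7 CPM in RNF138-/-. Of 12 plasma cell genes, 7 were called lower, with sums of 2542 to 3686 CPM against 950 to 1213 CPM. Among them Jchain had 1491, 2334 and 1559 CPM in WT and 218, 143 and 128 CPM in RNF138-/-. Tnfrsf17, the plasma cell receptor BCMA, had 3.42, 3.98 and 3.65 CPM in WT and 0, 0.217 and 0.0484 CPM in RNF138-/-. Sdc1, the plasma cell surface protein CD138 that epithelium also makes, had 334, 348 and 238 CPM in WT and 433, 509 and 376 CPM in RNF138-/-, and was not called (log2 fold change 0.47, SE 0.21, adjusted p = 0.164, edgeR). Smooth muscle genes were called lower in 8 of 8 cases, with sums of 2797 to 9445 CPM against 131 to 273 CPM, and fat and nerve genes in 4 of 7. Epithelial genes were called lower in 2 of 10 cases (15924 to 42482 against 7749 to 9256 CPM), and T cell and myeloid genes in 0 of 9 and 0 of 10. Pigr, the IgA transport receptor, had 3090, 2588 and 3968 CPM in WT and 1490, 1139 and 1329 CPM in RNF138-/-.

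IgM is the first antibody class a B cell makes, and IgD is made beside it by mature B cells before class switching. In AOM/DSS Ighm had 132, 96.8 and 43.0 CPM in WT and 51.3, 6.82 and 4.65 CPM in RNF138-/-, and the groups overlapped. Its log2 fold change of -2.16 (SE 0.96) did not pass the test (adjusted p = 0.164, edgeR). Ighd had 17.8, 4.08 and 5.78 CPM in WT and 0.966, 0.652 and 0.242 CPM in RNF138-/-, with no overlap. It passed the filter on low counts only through WT. In DSS Ighm had 21.9, 34.8 and 29.1 CPM in WT and 110.02, 64.5 and 47.5 CPM in RNF138-/-. Each RNF138-/- value was above each WT value, but the log2 fold change of 1.36 (SE 0.32) was not called (adjusted p = 0.2, edgeR). DESeq2 called it at a log2 fold change of 1.36. Beside it, all 12 B cell markers had positive log2 fold changes in DSS (median 1.53, none called), with sums of 49.9 to 65.1 CPM in WT and 59.1 to 153 CPM in RNF138-/-, and all 10 T cell markers did too (median 0.98, none called). Their part in the Ighm values was not tested.

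The IgG genes encode the main antibody classes of serum, and each mouse IgG subclass has its own constant gene. In AOM/DSS Ighg2b had 72.8, 197 and 77.9 CPM in WT and 22.8, 18.7 and 8.28 CPM in RNF138-/-, and fell by 2.86 on the log2 scale (SE 0.54, adjusted p = 0.0389, edgeR). Ighg2c had 92.5, 427 and 61.9 CPM in WT and 29.4, 16.5 and 6.58 CPM in RNF138-/-. The groups did not overlap, and the log2 fold change of -3.52 (SE 0.91) was just outside the threshold (adjusted p = 0.062, edgeR). It was called by DESeq2 and in 1 fit of all 12 libraries, at -3.51 and -3.47. Ighg3 had 13.7, 13.4 and 13.2 CPM in WT and 4.26, 0.217 and 0.0968 CPM in RNF138-/-. It passed the filter on low counts only through WT, so it is given without a test, and it was not called. Ighg1 had 62.3, 1497 and 136 CPM in WT and 395, 9.34 and 9.83 CPM in RNF138-/-. The groups overlapped, and its log2 fold change was -2.08 (SE 1.77, adjusted p = 0.428, edgeR), and 0.43 without AOM/DSS WT library 2. In DSS, Ighg2c had 498, 444 and 494 CPM in WT and 346, 195 and 243 CPM in RNF138-/-. These groups did not overlap, and the log2 fold change of -0.88 (SE 0.24) was not called (adjusted p = 0.234, edgeR).

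Among the constant genes called in AOM/DSS, the lambda gene Iglc2 had the largest fall. Iglc2, which pairs with Iglv2, had 129.8, 345 and 268 CPM in WT and 4.32, 5.95 and 3.68 CPM in RNF138-/-, a fall of 5.79 on the log2 scale (SE 0.46, adjusted p = 0.0168, edgeR). Iglv2 had 124, 381 and 255 CPM in WT and 4.49, 6.17 and 5.08 CPM in RNF138-/-, a fall of 5.65 (SE 0.47, adjusted p = 0.0168, edgeR). Both were thus low in every AOM/DSS RNF138-/- library, with narrow ranges. Iglc3 had 6.25, 55.1 and 23.3 CPM in WT and 0.171, 0.652 and 1.55 CPM in RNF138-/-, and passed the filter on low counts only through WT. Iglc1 had 99.1, 584 and 237 CPM in WT and 88.8, 13.3 and 19.5 CPM in RNF138-/-. The groups did not overlap by a narrow margin, and the log2 fold change of -2.97 (SE 0.94) did not pass the test (adjusted p = 0.0889, edgeR). Iglv1, its partner, had 126, 718 and 297 CPM in WT and 119.8, 34.2 and 17.0 CPM in RNF138-/- (log2 fold change -2.79, SE 0.91, adjusted p = 0.093, edgeR). The share of kappa among light chain constant counts was 93.9%, 83.9% and 83.4% in AOM/DSS WT and 85.8%, 95.1% and 89.97% in AOM/DSS RNF138-/-, and the groups overlapped. The genotype difference in kappa share over both models was 2.20 percentage points (exact permutation test, two-sided, n = 6 against 6, p = 0.315, adjusted 0.515).

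Kappa use was lower in the tumor model than in colitis. In DSS, kappa made up 97.2%, 97.4% and 96.0% of light chain constant counts in WT and 97.7%, 99.3% and 97.2% in RNF138-/-, so every DSS library lay above every AOM/DSS library. The difference over both genotypes was -8.79 percentage points (exact permutation test within genotypes, two-sided, n = 6 against 6, p = 0.005, the smallest possible, and 0.06 after adjustment over 18 tests). It was in the same direction within WT (-9.82) and within RNF138-/- (-7.75), each with p = 0.1, the smallest possible for 3 against 3 in an exact permutation test. The labels do not say whether the models were handled side by side, so the model and any such difference cannot be told apart.

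IgA held most of the heavy chain constant counts in all 12 tissue libraries. Its share was 87.9%, 90.9% and 85.5% in DSS WT, 87.8%, 75.6% and 91.4% in DSS RNF138-/-, 94.0%, 76.4% and 94.0% in AOM/DSS WT, and 53.1%, 92.0% and 91.9% in AOM/DSS RNF138-/-. The groups overlapped in each comparison, and the genotype difference over both models was -6.15 percentage points (exact permutation test, p = 0.53, adjusted 0.701). It was 0.320 without AOM/DSS RNF138-/- library 1. IgG took 3.69% to 23.4% of heavy chain constant counts in 11 of the 12 libraries and 41.8% in AOM/DSS RNF138-/- library 1. IgM took 0.251%, 0.420% and 0.386% in DSS WT, 1.24%, 1.04% and 0.808% in DSS RNF138-/-, 2.02%, 1.02% and 0.768% in AOM/DSS WT, and 4.75%, 1.05% and 1.27% in AOM/DSS RNF138-/-. The IgM share was higher in AOM/DSS than in DSS by 1.12 percentage points (exact permutation test, p = 0.01, adjusted 0.06), and by 0.521 without AOM/DSS RNF138-/- library 1. In DSS the groups of the 2 genotypes did not overlap (exact permutation test, n = 3, p = 0.1, the smallest possible). The 95% Wilson intervals of these shares, which cover counting error only, were within 0.71 percentage points of the value for heavy chains and 0.826 for kappa.

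**Figure D2:**
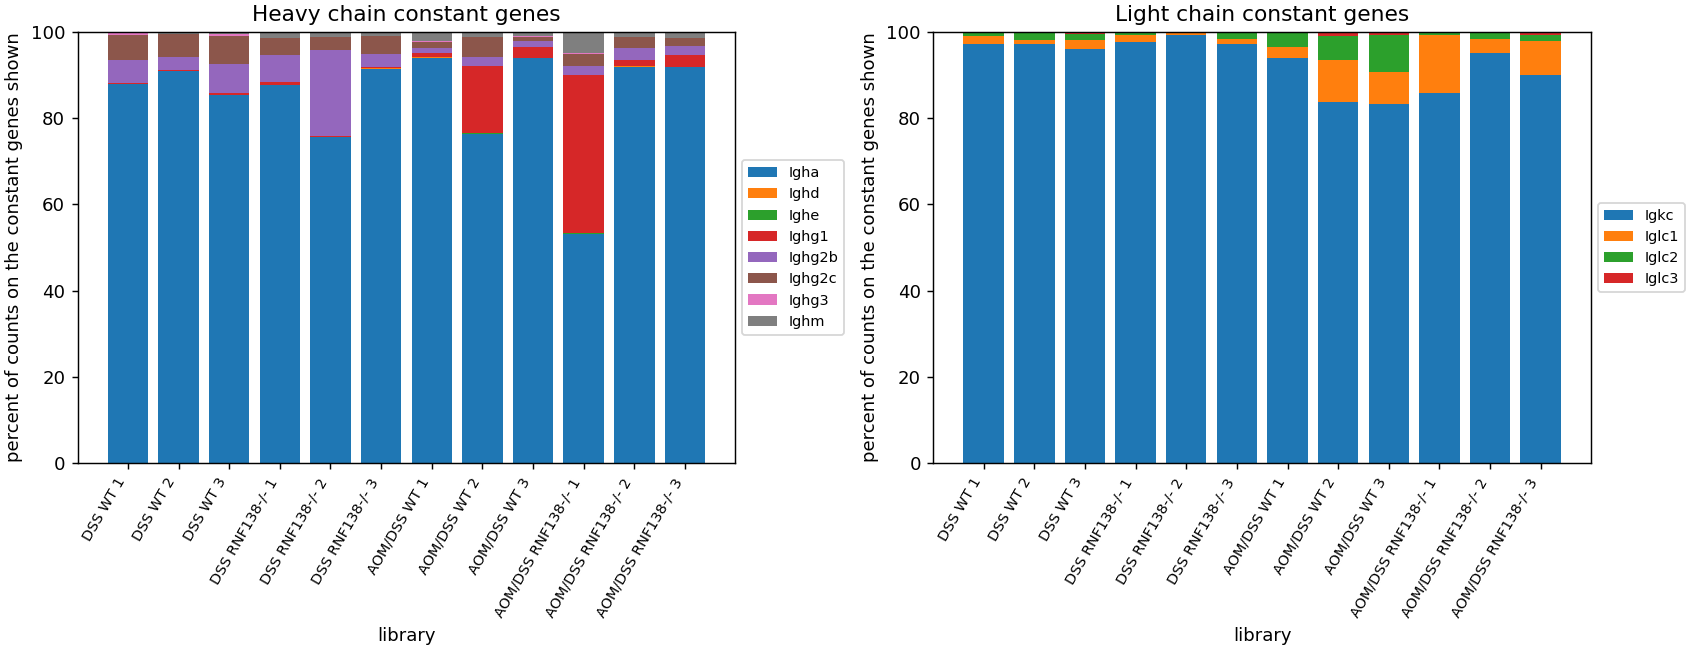
Shares of heavy chain constant counts (left) and light chain constant counts (right), in percent as stacked bars from 0, held by each constant gene in each of the 12 tissue libraries. Igha fills 75.6% to 94.0% of the bars except in AOM/DSS RNF138-/- library 1 (53.1%), where Ighg1 holds 36.6%.

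The libraries that departed from the IgA pattern did so through single IgG subclasses. In AOM/DSS WT library 2, Ighg1 held 15.8% of heavy chain constant counts and 70.2% of the IgG counts. In AOM/DSS RNF138-/- library 1 it held 36.6% and 87.5%. In DSS RNF138-/- library 2, Ighg2b held 19.9% and 85.1%. Ighg1 made up 1.26% to 6.38% of the IgG counts in the 6 DSS libraries and 20.9% to 87.5% in the 6 AOM/DSS libraries, a separation that was noticed after the values were seen and was not tested. Ighe, the constant gene of IgE, is rarely transcribed in tissue, and its highest counts, 97 and 47, were in the same AOM/DSS libraries with high Ighg1. These 2 libraries also had the highest level of Fcer1a, the IgE receptor chain of mast cells and basophils, at 5.89 and 6.25 CPM.

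Per kilobase of annotated exons, merged over all transcripts of a gene, Igkc had the highest mean level of the constant genes in all 4 groups. The merged length can hold exons that a given transcript lacks, so levels of different genes compare only roughly. Its level was 8766 and 9195 CPM per kb in DSS WT and RNF138-/- and 7144 and 735 in AOM/DSS WT and RNF138-/-. Igha followed at 2708, 2225, 2330 and 189 CPM per kb. Ighg2c had 361, 197, 146 and 13.2 CPM per kb and Ighg2b 152, 243, 43.2 and 6.2. The DSS RNF138-/- mean of Ighg2b rested on library 2, which had 1227 CPM against 546 and 177 CPM in libraries 1 and 3.

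In the DSS model the members called between genotypes were 3 V genes. Of 174 members tested, 3 were called lower in RNF138-/- and 0 higher, against 0.0722% and 0.018% of all genes. At an unadjusted p under 0.05 with a 2-fold change there were 42 lower and 11 higher, against 1.41% and 3.06% of all genes, and DESeq2 called 27 and 4, against 0.831% and 1.24% of all genes. All 3 called members passed the filter on low counts only through WT, as did, through the higher group, 84 of the 174, so their calls are a description of genes that had to differ. The median log2 fold change was -0.41 for the members and 0.02 for all 16623 genes tested. Groups did not overlap for 34 members lower in RNF138-/- (8.26% of all genes) and 6 members higher (8.94% of all genes). The unadjusted and DESeq2 counts, the median and these non-overlaps include the 84 members set to differ. Igkv5-37 had 12.003, 5.34 and 18.7 CPM in WT and 0.0641, 0 and 0 CPM in RNF138-/-, which is 572 counts against 1. Igkv9-123 had 4.78, 5.76 and 7.95 CPM in WT and 0.0641, 0.0641 and 0.0552 CPM in RNF138-/-, or 296 counts against 3, of which 1 was in each RNF138-/- library. Ighv1-34 had 5.31, 7.21 and 10.6 CPM in WT and 0.384, 0.0641 and 0.442 CPM in RNF138-/-. All 3 were present in every WT library and at or near 0 in every RNF138-/- library. The calls depended on the libraries. With WT 1 and 3 summed as 1 library 1 member was called lower, without WT 1 there was 1, without WT 2 there were 9, without WT 3 or RNF138-/- 2 there were 0, and without RNF138-/- 3 there were 30. The share of all genes called lower moved from 0% to 0.408% over the same fits.

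**Figure D3:**
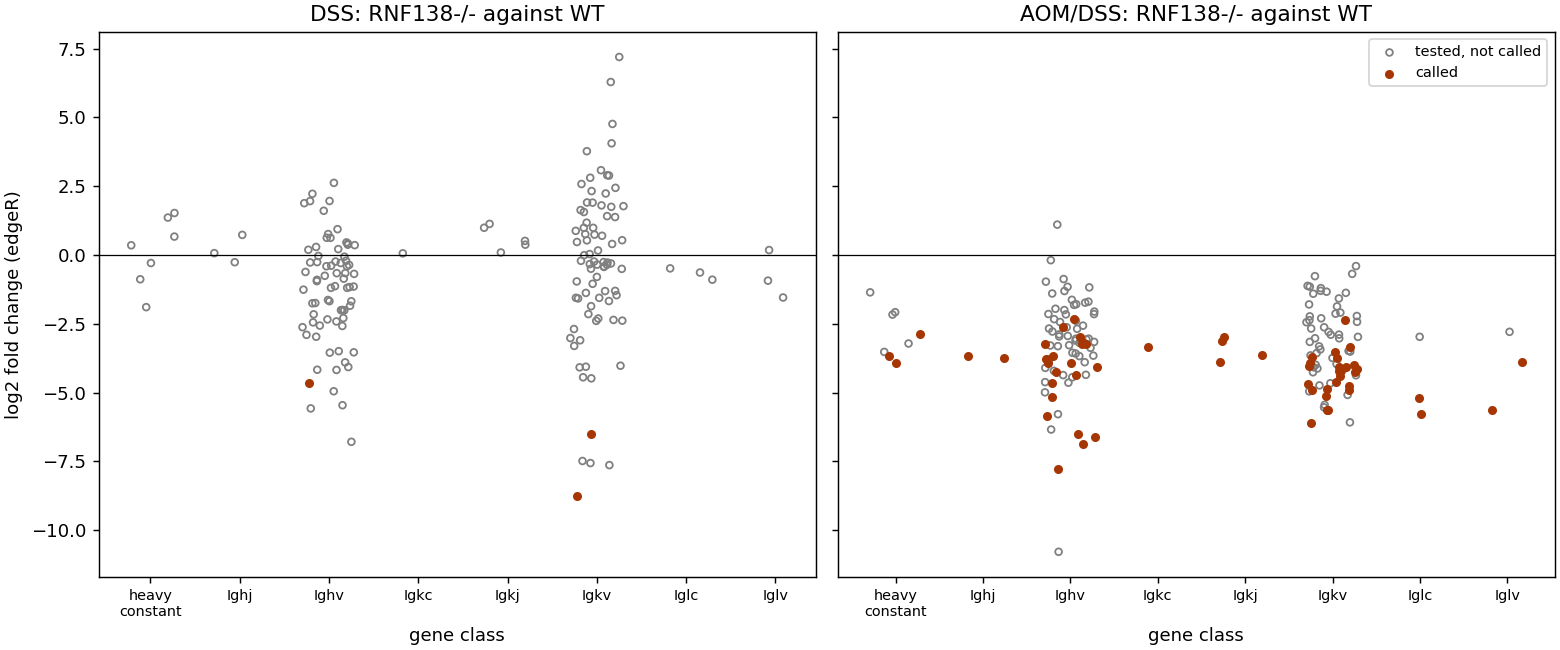
Log2 fold changes of RNF138-/- against WT in DSS (left) and AOM/DSS (right), one point a member tested, by class of immunoglobulin gene, with called members filled. In AOM/DSS 175 of 176 points are below 0 (median -3.34), and in DSS 109 of 174 are (median -0.41).

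A few V genes dominated some libraries labelled RNF138-/-. In DSS the most abundant Ighv gene held 6.77%, 11.8% and 5.21% of Ighv counts in the WT libraries (Ighv5-6, Ighv9-3 and Ighv9-3). In the RNF138-/- libraries it held 31.7% (Ighv10-1, 95% Wilson interval 30.7 to 32.7), 57.0% (Ighv1-81, 56.1 to 57.8) and 14.2% (Ighv1-81). These groups did not overlap. For Igkv genes the shares were 11.7%, 15.1% and 11.9% in WT (Igkv8-24, Igkv1-117 and Igkv6-13) and 51.9% (Igkv1-110, 51.3 to 52.5), 47.8% (Igkv1-117, 47.3 to 48.4) and 14.5% (Igkv1-117) in RNF138-/-. The groups overlapped, since library 3 labelled RNF138-/- was like the WT libraries. The dominant kappa genes of RNF138-/- libraries 1 and 2 are the near-identical pair printed above, which differ at 10 bases.

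Levels of these genes followed the same libraries. Igkv1-110 had 25.02, 214 and 58.0 CPM in DSS WT and 804, 90.6 and 231 CPM in DSS RNF138-/-. Igkv1-117 had 130, 225 and 172 CPM in DSS WT and 154, 949 and 306 CPM in DSS RNF138-/-. Ighv1-81 (minus strand of chr12:115920279-115920712) had 24.8, 47.7 and 43.2 CPM in DSS WT and 54.9, 526 and 133 CPM in DSS RNF138-/-. In library 2 labelled RNF138-/- the next genes were Ighv13-2 with 12.1% of Ighv counts and Igkv8-28 with 20.5% of Igkv counts. That is the library in which Ighg2b held 19.9% of heavy chain constant counts. Igkv8-28 had 406 CPM there and 4.42 and 10.4 CPM in the other DSS RNF138-/- libraries. In library 1, Ighv1-64 came second with 15.98%.

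In AOM/DSS a single RNF138-/- library showed the same kind of dominance. The most abundant Ighv gene held 7.05%, 12.1% and 14.7% in WT (Ighv3-6, Ighv2-2 and Ighv9-3) and 8.78%, 32.4% and 9.42% in RNF138-/- (Ighv2-2, Ighv1-69 and Ighv2-2). The most abundant Igkv gene held 11.7%, 9.77% and 17.4% in WT (Igkv1-110, Igkv1-117 and Igkv14-111) and 13.5%, 52.8% and 16.9% in RNF138-/- (Igkv1-110, Igkv1-117 and Igkv1-110). In RNF138-/- library 2, Ighv1-69 had 68.6 CPM, against 0.455 and 0.0968 CPM in the other RNF138-/- libraries, and Igkv1-117 had 201 CPM against 23.4 and 12.6 CPM. The Wilson intervals of library 2 were 31.1% to 33.8% for Ighv1-69 and 51.8% to 53.8% for Igkv1-117.

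**Figure D4:**
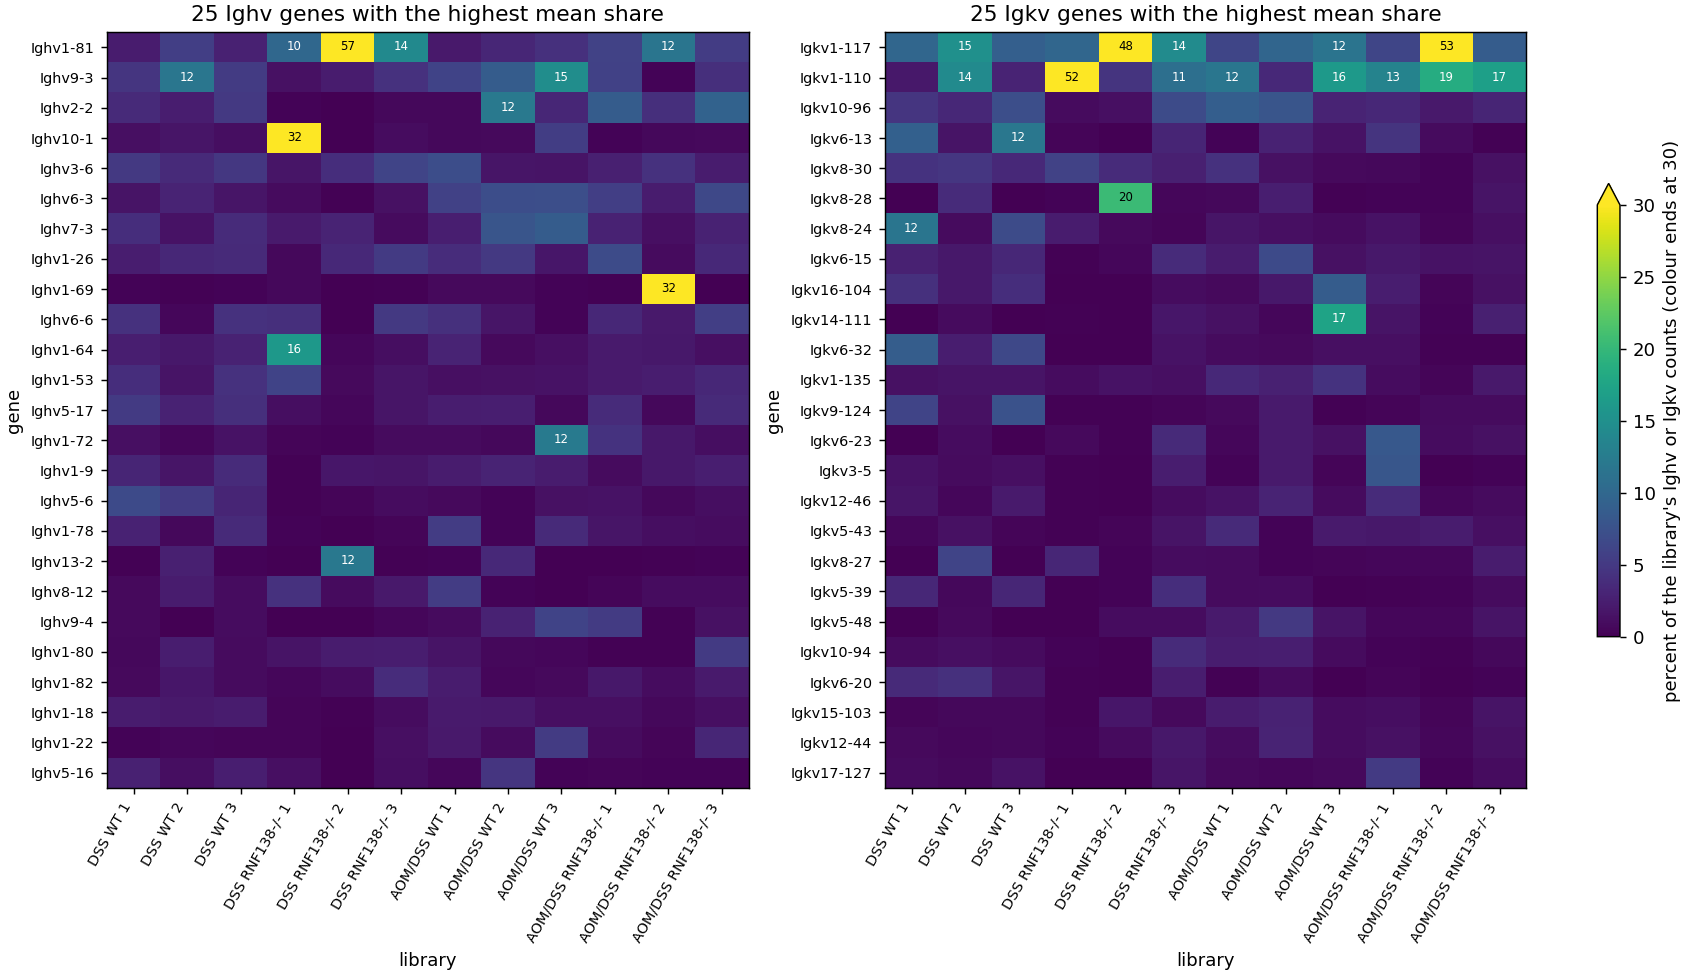
Heat map of the share of Ighv (left) and Igkv (right) counts, as colour in percent, held by the 25 V genes of each class with the highest mean share (rows) in the 12 tissue libraries (columns). The most abundant Igkv gene holds 51.9% and 47.8% in DSS RNF138-/- libraries 1 and 2 and 52.8% in AOM/DSS RNF138-/- library 2, against 9.77% to 17.4% in the other 9 libraries.

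The effective number of V genes, the inverse of the chance that 2 counts come from the same gene, gave the evenness of use in each library. For Ighv it was 34.0, 28.5 and 35.9 in DSS WT and 6.85, 2.90 and 22.6 in DSS RNF138-/-, with no overlap. It was 32.9, 20.5 and 15.2 in AOM/DSS WT and 25.8, 7.69 and 28.7 in AOM/DSS RNF138-/-, which overlapped. The genotype difference over both models was -12.1 (exact permutation test, two-sided, n = 6 against 6, p = 0.09, adjusted 0.2025). For Igkv it was 17.8, 16.6 and 19.1 in DSS WT, 3.47, 3.61 and 19.2 in DSS RNF138-/-, 24.99, 27.7 and 11.7 in AOM/DSS WT, and 19.9, 3.17 and 18.9 in AOM/DSS RNF138-/-. The difference was -8.28 (exact permutation test, p = 0.09, adjusted 0.2025). For the share of the most abundant gene the genotype difference was 15.99 percentage points for Ighv (exact permutation test, p = 0.075, adjusted 0.2025) and 19.98 for Igkv (p = 0.04, adjusted 0.18). None of these genotype differences passed adjustment, and 3 of the 6 RNF138-/- libraries had Igkv values within the WT range of 11.7 to 27.7.

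As a count of genes, 50% of the Ighv counts came from 13, 13 and 13 genes in DSS WT and from 3, 1 and 9 in DSS RNF138-/-. In AOM/DSS they came from 12, 7 and 6 genes in WT and 9, 4 and 11 in RNF138-/-. For Igkv the numbers were 6, 7 and 7 against 1, 2 and 8 in DSS, and 10, 11 and 4 against 7, 1 and 8 in AOM/DSS. Of the 86 Ighv members, 1, 4 and 1 had no count in the DSS WT libraries and 14, 9 and 3 in the DSS RNF138-/- libraries. A gene with no count may have been present below the 3 counts that a count of 0 allows.

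Pooled over the 12 libraries, V gene families were unevenly used. The 44 members of the Ighv1 family, the largest, held 44.5% of Ighv counts, the 8 members of Igkv1 held 32.2% of Igkv counts, and Iglv1 alone held 64.3% of Iglv counts. Single libraries departed from these pooled shares. In DSS WT library 1 the Igkv6 and Igkv8 families had 5610 and 4364 counts and Igkv1 had 3662, and in DSS WT library 2 Iglv2 had 1407 counts and Iglv1 1298. Along the kappa locus, the 30 members farthest from the J segments, 1954 to 3113 kb away, held 52.2% of the Igkv counts, the middle 30 held 18.2% and the nearest 30 held 29.6%. Igkv1-117 and Igkv1-110 are both in the far group. Its share ran from 35.4% to 81.6% over libraries. For Ighv the pooled shares were 34.2%, 34.3% and 31.5% from near to far, and over libraries they ran from 8.65% to 49.0%, 20.4% to 42.5% and 16.5% to 66.0%.

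Libraries differed in which V genes they used. Over the other 65 pairs, the overlap of V gene use was 24.6% to 67.0% for Ighv (median 48.6%) and 25.6% to 64.1% for Igkv (median 47.4%). DSS WT 1 and 3, at 89.4% and 86.0%, lay above every other pair in both, and Spearman's rho over genes was 0.978 and 0.975 for this pair. Igkv14-111, which reached 303 CPM in AOM/DSS WT library 3, had no count in either of them. Ighv8-5 had 38.9 and 40.1 CPM in these 2 libraries and 3.78 CPM in DSS WT library 2.

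**Figure D5:**
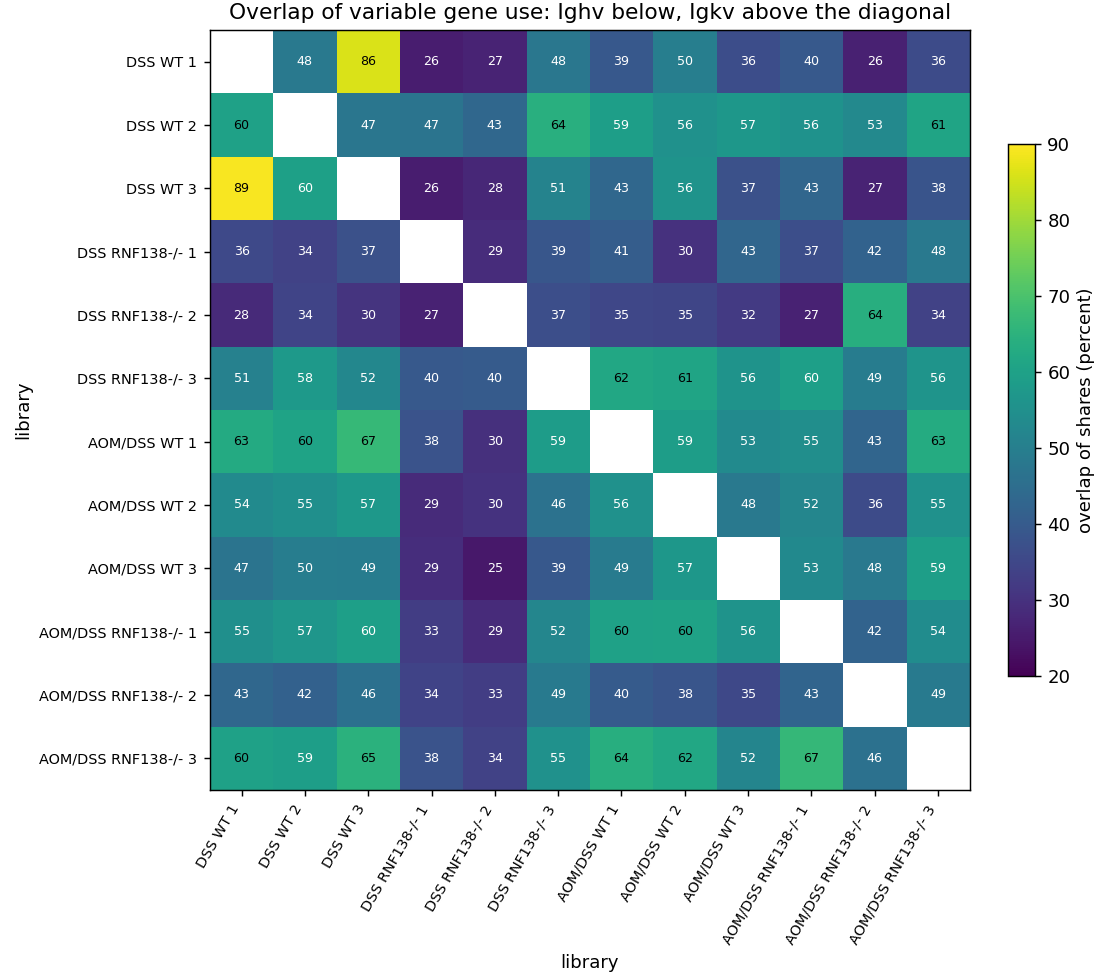
Overlap of V gene use (percent, the sum over genes of the smaller share) as colour for each pair of the 12 tissue libraries, with Ighv below and Igkv above the diagonal. DSS WT libraries 1 and 3 overlap by 89.4% and 86.0%, and no other pair exceeds 67.0%.

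In the AOM/DSS genotype comparison, the V genes with the largest log2 fold changes among those called were also nearly absent from the RNF138-/- libraries. Ighv5-15 and Ighv1-71 had 24 and 37 counts outside AOM/DSS WT, so they reached 50 counts only through that group and had to differ, as did Igkv10-95. They are among the 61 calls, and are given here without a test. Ighv5-15 had 12.96, 1.21 and 0.709 CPM in WT and 0, 0 and 0.0484 CPM in RNF138-/-, or 228 counts against 1, and 197 of its WT counts were in library 1. Ighv1-62-2 had 5.33, 11.9 and 1.32 CPM in WT and 0, 0.0434 and 0.0968 CPM in RNF138-/-, or 330 counts against 3, and passed the filter on low counts only through WT. Ighv1-71 had 2.17, 24.3 and 3.34 CPM in WT and 0.171, 0.0869 and 0.0484 CPM in RNF138-/-, or 548 counts against 6. Genes in every WT library at a similar level fell as well. Igkv1-135 had 85.0, 67.6 and 76.9 CPM in WT and 3.92, 1.35 and 2.90 CPM in RNF138-/-, a fall of 4.87 (SE 0.40, adjusted p = 0.0168, edgeR). Ighv6-3 had 96.5, 143 and 95.6 CPM in WT and 15.3, 4.87 and 5.57 CPM in RNF138-/-, a fall of 3.76 (adjusted p = 0.0251, edgeR).

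Of the 6 Ighv and 6 Igkv genes with the highest mean level over the 12 libraries, 4 were called lower in AOM/DSS, namely Ighv6-3, Ighv7-3, Igkv10-96 and Igkv8-30. Ighv7-3 had 42.3, 159.6 and 115 CPM in WT and 7.96, 2.61 and 2.52 CPM in RNF138-/- (log2 fold change -4.66, SE 0.71, adjusted p = 0.0286, edgeR). Igkv10-96 had 218, 191 and 51.2 CPM in WT and 12.7, 7.99 and 4.45 CPM in RNF138-/- (log2 fold change -4.24, SE 0.66, adjusted p = 0.0299, edgeR). Igkv8-30 had 104.5, 31.2 and 12.3 CPM in WT and 2.33, 0.912 and 1.94 CPM in RNF138-/- (log2 fold change -4.89, SE 0.88, adjusted p = 0.0359, edgeR). In these 4 genes the groups did not overlap. Ighv9-3 lay just outside the threshold, with 99.7, 176 and 196 CPM in WT and 15.7, 0.608 and 3.49 CPM in RNF138-/- (adjusted p = 0.0518, edgeR). Igkv1-117, the dominant kappa V gene of RNF138-/- library 2, had 151, 235 and 202 CPM in WT and 23.4, 201 and 12.6 CPM in RNF138-/-, which overlapped (log2 fold change -1.37, SE 0.97, adjusted p = 0.344, edgeR). Its near-copy Igkv1-110 had 285, 82.6 and 283 CPM in WT and 50.5, 70.7 and 24.5 CPM in RNF138-/-, without overlap (log2 fold change -2.21, SE 0.58, adjusted p = 0.063, edgeR).

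The J segments, which are counted apart from the V genes, had low counts. Ighj4, the J gene with the most counts of the heavy chain, had 2.43, 5.59 and 2.03 CPM in AOM/DSS WT and 0.227, 0.304 and 0.242 CPM in RNF138-/-. Igkj5 had 2.56, 5.13 and 2.84 CPM in WT and 0.568, 0.521 and 0.290 CPM in RNF138-/-. Neither gene's groups overlapped. In DSS neither was called, and their log2 fold changes were 0.07 and 0.09.

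Between the models in WT mice, the share of members called was near that of all genes, and which of them was larger changed with the fit. Of 192 members tested, 14 were called higher and 3 lower in AOM/DSS than in DSS, in 1 edgeR fit of the 12 libraries. These are 7.29% and 1.56% of the members, against 8.41% and 3.04% of all genes. DESeq2 called 25 higher and 8 lower, 13% and 4.17% of the members, against 10.1% and 4.18% of all genes. An edgeR fit of only the libraries of the contrast called 21 higher and 6 lower. These are 11.1% and 3.17% of the members, against 6.75% and 3.09% of all genes. The median log2 fold change was 0.67 for the members and 0.04 for all 18843 genes. The 14 were 9 Igkv genes, 4 Ighv genes and Iglc2, and the 3 were Ighv8-5, Ighv5-6 and Igkv11-114. With DSS WT 1 and 3 summed as 1 library, 4 were called higher and 1 lower, 2.03% and 0.508% of the members, against 6.38% and 2.35% of all genes. The count of higher calls was 3 without DSS WT 1, 5 without DSS WT 3, 7 without AOM/DSS WT 1 or 2, and 22 without AOM/DSS WT 3. That of lower calls was 1 without DSS WT 1 or 3, 5 without DSS WT 2 and 7 without AOM/DSS WT 2. In the fits without 1 library the share of all genes called higher was 4.69% to 9.98% and lower 0.98% to 4.11%. Beside these values, 12 of 12 B cell markers had positive log2 fold changes (median 1.76, 3 called higher), with sums of 49.9 to 65.1 CPM in DSS and 68.7 to 161 CPM in AOM/DSS, and 2 of 9 follicle genes were called higher. Their part in the result was not tested.

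Among constant genes in WT, Iglc2 rose from 40.8, 84.1 and 58.4 CPM in DSS to 129.8, 345 and 268 CPM in AOM/DSS, by 2.02 on the log2 scale (SE 0.54, adjusted p = 0.028, edgeR). With DSS WT 1 and 3 summed it was 1.91 and was no longer called. Ighg1 had 31.0, 17.9 and 30.9 CPM in DSS and 62.3, 1497 and 136 CPM in AOM/DSS, without overlap, at a log2 fold change of 4.41 (SE 1.53, adjusted p = 0.0736, edgeR). Ighg2b had 461, 253 and 506 CPM in DSS and 72.8, 197 and 77.9 CPM in AOM/DSS, also without overlap, at -1.81 (SE 0.64, adjusted p = 0.0764, edgeR). Neither passed the threshold here, and both did so with DESeq2. Igha and Igkc had log2 fold changes of -0.22 and -0.29, and neither was called.

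Single libraries stood behind several of the largest V gene differences between models in WT. Of the calls, 3 of the 14 higher and 2 of the 3 lower were members that passed the filter on low counts only through the higher group, and Ighv11-2, Ighv1-71, Igkv11-114 and Ighv8-5 are therefore given without a test. Ighv11-2 had 0.537, 0 and 0.662 CPM in DSS and 2.50, 115 and 1.52 CPM in AOM/DSS, where 2281 of 2334 counts were in WT library 2. Ighv1-71 had 482 of its 548 AOM/DSS WT counts in that library, the one with 15.8% Ighg1. Igkv4-74 had 0, 0.420 and 0 CPM in DSS and 17.8, 0.654 and 8.01 CPM in AOM/DSS, a rise of 5.87 (adjusted p = 0.0277, edgeR). Of those called lower, Ighv8-5 had 38.9, 3.78 and 40.1 CPM in DSS and 0.921, 1.01 and 0.304 CPM in AOM/DSS, and Igkv11-114, a pseudogene, had 0.836, 1.501 and 1.99 CPM in DSS and 0, 0.252 and 0.101 CPM in AOM/DSS. Ighv5-6 had 74.7, 44.9 and 48.7 CPM in DSS and 12.4, 6.94 and 17.5 CPM in AOM/DSS, a fall of 2.20 (SE 0.68, adjusted p = 0.0498, edgeR). Igkv1-135 and Ighv6-3 rose in all 3 libraries at a similar level, by 1.68 (SE 0.34, adjusted p = 0.00786, edgeR) and 2.26 (SE 0.59, adjusted p = 0.0257, edgeR).

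In the mice labelled RNF138-/-, Igha, Igkc and Ighg2b were among the members called lower in AOM/DSS than in DSS. Of 192 tested, 61 were called lower and 0 higher, against 19.6% and 17.1% of all genes, so the share of lower calls among members was 31.8%. At an unadjusted p under 0.05 with a 2-fold change the counts were 79 and 2, against 20.6% and 18.1% of all genes, and DESeq2 called 73 lower and 3 higher, against 20.4% and 16.9%. The median log2 fold change was -1.93 for the members, of which 155 had a negative and 35 a positive value. Markers of other cell types were called lower in the same comparison, namely 8 of 8 smooth muscle genes (median log2 fold change -5.67), 8 of 8 fat and nerve genes (-3.80), 11 of 12 B cell genes (-3.25), 8 of 12 plasma cell genes (-2.41), 6 of 10 epithelial genes (-1.48) and 5 of 10 T cell genes (-1.15). Of 10 myeloid genes, 4 were called higher and 1 lower (median 0.65). Of 10 fibroblast and endothelial genes, 1 was called lower and 0 higher (median -0.16). The part of these markers in the result was not tested. Without AOM/DSS RNF138-/- library 3, 39 members were called lower (19.7%, against 18.6% of all genes). Igha fell by 3.56 (SE 0.32, adjusted p = 2.66e-05, edgeR), Igkc by 3.65 (SE 0.40, adjusted p = 6.66e-05, edgeR) and Ighg2b by 5.29 (SE 0.74, adjusted p = 0.000242, edgeR). Ighg2b had 546, 1227 and 177 CPM in DSS and 22.8, 18.7 and 8.28 CPM in AOM/DSS. Iglc1 and Iglv1 were not called, at log2 fold changes of -0.44 and -0.20. The 3 largest falls were of V genes. Ighv1-62-2 had 406 counts in DSS against 3 in AOM/DSS, of which 392 were in DSS RNF138-/- library 3. Igkv4-74 had 3.72, 57.5 and 5.58 CPM in DSS and 0.114, 0.261 and 0.145 CPM in AOM/DSS, a fall of 6.91 (adjusted p = 0.00317, edgeR). Ighv13-2 had 0, 111 and 1.55 CPM in the DSS libraries, so its fall of 6.84 (SE 2.34, adjusted p = 0.0285, edgeR) rested on library 2.

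The difference between the genotype effects of the 2 models was tested directly as an interaction. Of 192 members, 37 had a genotype effect that was called more negative in AOM/DSS than in DSS and 0 the opposite, against 7.23% and 1.1% of all genes. At an unadjusted p under 0.05 with a 2-fold difference the counts were 83 and 1, against 14.5% and 4.83% of all genes, and DESeq2 called 55 and 0, against 10.8% and 2.51%. The median of the interaction was -2.50 for the members and -0.00287 for all genes. It was called for Igha at -3.34 (SE 0.42, adjusted p = 0.00238, edgeR), Igkc at -3.35 (SE 0.52, adjusted p = 0.00509, edgeR) and Iglc2 at -4.83 (SE 0.79, adjusted p = 0.00612, edgeR). It was also called for Ighd at -5.41 (SE 1.19, adjusted p = 0.0209, edgeR) and Ighg2b at -3.48 (SE 0.90, adjusted p = 0.0357, edgeR), and both were lost with DSS WT 1 and 3 summed as 1 library, when 15 members (7.61%, against 3.31% of all genes) were called. The count was 11 without DSS WT 1, 18 without DSS WT 3, and 24, 19 and 21 without AOM/DSS RNF138-/- library 1, 2 and 3, while 2.94% to 5.24% of all genes were called in these fits. The 37 were not split by the groups through which they passed the filter on low counts. The 3 largest were Igkv4-74 at -12.78, Ighv1-62-2 at -11.47 and Igkv4-68 at -9.29, given here without a test. Igkv4-74 had 7 counts in DSS WT and 11 in AOM/DSS RNF138-/-. Ighv1-62-2 had 406 counts in DSS RNF138-/-, mostly in library 3, and 3 in AOM/DSS RNF138-/-. Igkv4-74 is a case in which WT levels were higher, and RNF138-/- levels lower, in AOM/DSS than in DSS. These comparisons share libraries with those above and are not independent of them.

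Outside antibody genes themselves, Rag1, Rag2 and Dntt had their highest levels in a single library. Rag1 and Rag2, the recombinase that joins segments, and Dntt, which adds bases at the joints, had 3.09, 0.387 and 2.65 CPM in DSS RNF138-/- library 3. Rag1 was at 0 in the other 11 tissue libraries, and Dntt at 0 in all others but AOM/DSS WT library 1 (0.329 CPM). The end-joining factors, which act in every cell type, had counts in all 12 tissue libraries, at 14.7 to 49.5 CPM for Xrcc5, 18.6 to 37.1 for Xrcc6, up to 19.9 for Lig4 and 6.94 to 11.7 for Xrcc4. Over recombination and class switching genes, 2 of 15 tested were called lower in AOM/DSS genotype and 0 of 15 in DSS. Ccl28, a chemokine that draws IgA plasma cells, had 108, 77.3 and 144 CPM in AOM/DSS WT and 16.7, 11.3 and 33.6 CPM in AOM/DSS RNF138-/-. Of 11 IgA transport and homing genes tested, 3 were called lower in that comparison.

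The organoid libraries held almost no immunoglobulin RNA. The members had 17 to 55 counts in a library, or 8.61e-05% to 3.69e-04% of its total, against 0.101% to 2.27% in the tissue libraries. Over the 6 organoid libraries Ighg2c had 57 counts, Ighg1 52 and Igha 30, and no genotype comparison was made at this depth.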

How the data were processed

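RNA sequencing of colorectal tissue and organoids gave 18 libraries in 6 groups of 3, all grouped by their labels. The authors deposited whole-number read counts, not normalized, of 36757 genes. The submitters' notes name mm10, STAR 2.6.1d, HTSeq 0.11.2 and DESeq2, and the study's methods describe Cufflinks with a Gencode annotation, so which tool made the counts, and whether strand and reads that map to several genes were used, is not given in the sources used here. A second deposited table held the authors' fold changes and p-values and was not used. Gene positions and sequences came from GENCODE M21 on mm10, to which 36700 identifiers matched without their version. Total counts were 11514716 to 19608929 in the tissue libraries.

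Genotypes were compared within each model by edgeR 4.0.16 in R 4.3.3 over all genes that passed filterByExpr (TMM normalization, glmQLFit, glmQLFTest, Benjamini-Hochberg adjustment). Models were compared, and the interaction tested, in 1 fit of the 12 tissue libraries. Calls needed an adjusted p below 0.05 together with a change of 2-fold or more. The SE is the log2 fold change divided by the square root of F. CPM were normalized by TMM over the 12 tissue libraries. Shares of constant and V gene counts, the effective number of V genes and the immunoglobulin share were tested by exact permutation over libraries, with adjustment over 18 tests. Intervals and the limit of 3 counts behind a count of 0 cover counting error only.

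The genes named are all constant genes, the V genes with the highest mean CPM (6 Ighv, 6 Igkv and 2 Iglv genes at most), the V genes with the most counts in each library, the 3 largest changes in each direction among the members called in each comparison, all members called where 5 or fewer were, and the J genes with the most counts. Other members were named after their values were seen. The members and gene lists were chosen with earlier results of these data known. The alternatives were DESeq2 1.42.0, other normalizations, no filter on low counts, the replicate number as a block, other sets of libraries in the fit, other measures of V gene use and leaving out each library. Summing DSS WT 1 and 3 was added after seeing the data. Samples with the same replicate number did not deviate together in every pair, so the numbers were not used as pairs. On simulated counts, in which 200 genes were given a 4-fold change, the fit recovered 160 in DSS with 12 false calls among 16623 genes, and 121 in AOM/DSS with 7 false calls among 17752.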

Additional observations from a re-analysis of the deposited data

Results flagged for a closer look

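The genotype effect differed between the models by the interaction test (edgeR) in 37 of 192 members, all more negative in AOM/DSS, against 7.23% of all genes. With DSS WT 1 and 3 summed as 1 library it was 15 members (7.61%, against 3.31% of all genes), without Ighd and Ighg2b. Among the constant genes called over all 12 libraries, the interaction was -3.34 on the log2 scale for Igha, -5.41 for Ighd, -3.48 for Ighg2b, -3.35 for Igkc and -4.83 for Iglc2. For Igha, Igkc, Ighg2b and Iglc2, the AOM/DSS RNF138-/- libraries lay below every other tissue library. For Ighd, library 1 of that group (0.966 CPM) was above DSS RNF138-/- library 2 (0.833 CPM). In the same libraries the smooth muscle, B cell and plasma cell genes were low, and their part in the interaction was not tested.

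The organoid libraries, which enter no comparison above, held a few immunoglobulin counts. Over the 6 libraries Ighg2c had 57 counts, Ighg1 52 and Igha 30. In single libraries they had 6 to 20, 2 to 21 and 1 to 15 counts. The lowest values of Ighg1 and Igha are thus within the 3 counts that a count of 0 allows. Their source was not tested.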

How the results depend on the processing

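The counts of members called moved with the method and with single libraries. For genotype in DSS, the members called lower were 27 with DESeq2, 45 with no filter on low counts, 18 with the replicate block, 0 in 1 fit of 12 libraries and 1 with DSS WT 1 and 3 summed, and those called higher were 4, 11 and 2 with the first 3 of these. Of all genes, 0.831%, 0.457%, 0.307%, 0.0106% and 0.00582% were called lower in these fits, and 1.24%, 0.644% and 0.229% higher in the first 3. For genotype in AOM/DSS, DESeq2 called 125 lower and no filter 104, against 10.8% and 4.36% of all genes. Between models in WT, the lower calls were 8 with DESeq2, 13 with no filter, 6 with only the libraries of the contrast and 1 with DSS WT 1 and 3 summed, against 4.18%, 2.25%, 3.09% and 2.35% of all genes. The higher calls in the same 4 fits were 25, 32, 21 and 4, against 10.1%, 5.5%, 6.75% and 6.38% of all genes. In RNF138-/- the higher calls were 3 with DESeq2, 4 with no filter, 1 with the replicate block and 1 with only the libraries of the contrast. Of all genes, 16.9%, 10.3%, 17.4% and 16.1% were called higher in these fits. The interaction called 73 more negative with no filter and 15 with DSS WT 1 and 3 summed, against 5.11% and 3.31% of all genes. The cause of these shifts was not tested. The replicate block ended the call of Ighg2b in the interaction (-3.02) and of Ighv7-3 in AOM/DSS genotype (-4.71) and RNF138-/- (-1.83). The same-numbered samples correlated at 0.03 to 0.48 within models and -0.08 to 0.07 between them. Differently numbered samples correlated at -0.377 to 0.253 within models. Whether the numbers mark pairs within a model is not settled by these values.

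With each library left out in turn, the lower and higher counts ran from 0 to 30 and 0 to 3 for genotype in DSS, 0 to 102 lower in AOM/DSS, 1 to 7 and 3 to 22 between models in WT, 39 to 66 and 0 to 2 in RNF138-/-, and 11 to 39 and 0 to 3 for the interaction. In the same order, the shares of all genes ran from 0% to 0.408% and 0% to 0.461%, 0% to 5.25%, 0.98% to 4.11% and 4.69% to 9.98%, 17.2% to 20.7% and 15% to 18.4%, and 2.94% to 8.67% and 0.123% to 2.33%. The IgA difference ran from -9.40 to 0.320 for genotype and -6.19 to 3.52 for model, IgG from -0.595 to 8.25 and -4.12 to 4.65, and the effective number of Ighv genes between models from -2.51 to 3.25. The IgG model difference was -0.404 with reads per kb. The effective Ighv model difference, which was -0.00507, was 1.77 by the Shannon index, 0.761 without genes sharing windows, 0.156 with no minimum count and 0.331 with DSS WT 1 and 3 summed. Without AOM/DSS RNF138-/- library 2, the kappa and IgM model differences passed adjustment (p = 0.045 each, exact permutation test), and over all libraries they ran from -10.5 to -7.67 and from 0.521 to 1.45. Single genes also changed sign without 1 library. In DSS genotype Ighg1 ran from -0.375 to 0.649, Ighg2b from -0.189 to 1.11 and Igkc from -0.119 to 0.242. In AOM/DSS genotype Ighe ran from -4.96 to 0.0582 and Ighg1 from -5.93 to 0.435. Between models in RNF138-/-, Ighe ran from -1.48 to 2.72, Ighg1 from -1.84 to 2.73 and Iglc1 from -1.74 to 0.195. In the interaction Ighe ran from -4.06 to 0.948, Ighg1 from -6.24 to 0.121 and Ighg3 from -4.45 to 0.026.

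The depth of 11514716 to 19608929 counts left members such as Ighe and the J genes at a few CPM or less, where small differences were not detectable.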
